A study of Mus musculus with 3 samples.

Results

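The ribosomal protein genes of somatostatin-lineage neurons were described here by single-cell RNA sequencing of the developing mouse neocortex. A gene belonged to the set when its symbol followed the naming of the cytoplasmic ribosomal proteins (Rps or Rpl with a number, with or without a letter, plus Rplp0, Rplp1, Rplp2 and Rpsa), was not marked as a pseudogene, and had at least 30 unique molecular identifiers (UMIs, each counting 1 captured mRNA molecule) over the kept cells. Of 31053 genes in the tables, 84 symbols matched and 81 genes passed, 49 named for the large subunit and 32 for the small subunit. The 3 symbols that did not pass, Rpl10l, Rpl39l and Rpl3l, had 0, 5 and 8 UMIs.

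Ribosomes are built from ribosomal RNA and a fixed complement of proteins, most of them present once per subunit. The cell therefore needs the proteins in set proportions. Their mRNAs are short, abundant and share a run of pyrimidines at the 5′ end, the terminal oligopyrimidine tract, through which the growth-regulating kinase mTOR controls their translation. In young neurons ribosomes are needed for growth of the cell body, the axon and the dendrites. In single-cell data the summed share of these mRNAs is one of the largest blocks of a cell's transcriptome, and it is often followed as a measure of both growth state and cell condition.

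The cells came from SstCre/+;RCEfl/+ mice, in which Cre recombinase made from the somatostatin gene switches on GFP permanently, so that a labelled cell has expressed somatostatin at some time but need not express it at collection. Neocortex was taken at embryonic day 16.5 (E16.5, 6 animals pooled), postnatal day 1 (P1, 3 animals pooled) and postnatal day 5 (P5, 3 animals pooled), and sorted cells that carried GFP and excluded DAPI gave 1 droplet library per age. All 3 libraries carried the same alleles, and no library was treated or mutant. P1 and P5 cells were also passed over Percoll to remove myelin, P5 tissue alone received trypsin and DNAseI, and the P1 matrix was made with another Cell Ranger version than the other two. With 1 library per age, age, litter pool, preparation and software cannot be told apart and no test between ages was possible. Groups of cells of the same library could be compared as pairs over the 3 libraries. All intervals below are exact 95% intervals that cover counting error only.

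Cells were kept with over 700 detected genes and under 10% mitochondrial UMIs, which left 3952 (E16.5), 2501 (P1) and 2980 (P5) cells. The P1 library stood apart, since 43.7% of its barcodes were left out against 11.7% at E16.5 and 12.5% at P5, and its median mitochondrial share among kept cells was 5.92% against 4.05% and 4.21%. The kept cells had medians of 5577, 3293 and 3936 UMIs in that order. Pairs of libraries had between 1 and 6 cell barcodes in common. The labels call the cells neurons, and at least 1 UMI of 8 neuron markers was found in 99.9% to 100.0% of kept cells, whereas the summed level of 6 microglial markers was at most 13.2 CPM (counts scaled to 1000000 UMIs of the same group), that of 6 vascular markers at most 3.74 CPM and that of 5 blood markers at most 1.40 CPM. The 6 astrocyte markers summed to 4.99 to 17.5 CPM, and the 6 oligodendrocyte markers to 32.8 to 50.3 CPM, most of it Mbp, with a UMI in 14.3% to 16.6% of cells. The 7 progenitor markers summed to 172 to 287 CPM, of which Sox2 alone made up 163 to 265 CPM. The study reports Sox2 in long-range projecting somatostatin neurons, so in these cells it does not mark progenitors alone. The part of other cell types in the results was not tested. No cell type markers of the sorted lineage were absent, and Sst was the highest of the 10 markers of its lineage in each library, at 2939, 2261 and 1867 CPM.

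Cells were grouped by 2 genes. Nos1, which encodes neuronal nitric oxide synthase, marks the long-range projecting somatostatin neurons. Lhx6 encodes a transcription factor of inhibitory neurons born in the medial ganglionic eminence. Cells with at least 1 UMI of Nos1 are called Nos1 cells (67, 434 and 547 from the youngest to the oldest library), and cells with at least 1 UMI of Lhx6 and none of Nos1 are called Lhx6 cells (3269, 1606 and 1874 cells). The E16.5 Nos1 cells were few and mixed. Of these 67 cells, 14 had at least 3 UMIs of Neurod6, a transcription factor gene of excitatory neurons, against 10 of 434 at P1 and 0 of 547 at P5.

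The sequences at the annotated transcription starts of 6 members whose levels the description below turns on are printed to show how the pyrimidine tract lies. They cover 10 bases before the start and 20 from it, in the direction of transcription, from RefSeq on GRCm38.p6. A tract was taken as a C followed by at least 4 pyrimidines and starting within 10 bases of the annotated start, and it is given in capitals.
Rpl38, chr11:114668570-114668599, plus strand: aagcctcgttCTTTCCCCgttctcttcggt
Rpl22l1, chr3:28805498-28805527, plus strand: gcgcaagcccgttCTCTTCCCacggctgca
Rps12, chr10:23787190-23787219, minus strand: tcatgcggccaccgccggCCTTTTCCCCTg
Rpl41, chr10:128549149-128549178, minus strand: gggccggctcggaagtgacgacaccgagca
Rpl10, chrX:74270806-74270835, plus strand: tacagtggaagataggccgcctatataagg
Rps28, chr17:33824543-33824572, minus strand: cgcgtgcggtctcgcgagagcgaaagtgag
In Rpl38 the tract began at the annotated start itself and ran for 8 bases, in Rpl22l1 it began 3 bases later and ran for 8, and in Rps12 it began 8 bases later and ran for 11. The other 3 windows held no such tract at the start RefSeq gives.

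Of the 81 members, 61 had an entry in the RefSeq table. A tract within 10 bases of the start was present in 36 of 61 members (59%) and in 34.4% of the 27025 genes in the table. Within 1 base of the start it was present in 19 members (31.1%) and in 7.51% of all genes. Over the whole window of 250 bases before and 50 after the start, and on both strands, the letters CCGGAAG were found in 25 members (41%) and 9.93% of all genes, AAGATGGC in 6 members (9.84%) and 3.19% of all genes, and TATAAA in 7 members (11.5%) and 15.7% of all genes. CCGGAAG and AAGATGGC can overlap in their letters AAG, and the presence of a motif is a description of the sequence and not of a factor's binding.

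The members together made up 9.10% of the UMIs of Lhx6 cells in the E16.5 library, with 6.84% in that of P1 and 7.83% in that of P5. In Nos1 cells the shares were 8.93%, 6.18% and 7.55%. The share was thus highest at E16.5 and lowest at P1 in both groups, and that of Nos1 cells was the lower at each age.

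The P1 share of Lhx6 cells was 0.751 times that at E16.5, a log2 ratio of -0.41 (interval -0.42 to -0.41), and the P5 share was 1.15 times that at P1, a log2 ratio of 0.20 (0.19 to 0.20). In Nos1 cells the same steps were -0.53 (-0.55 to -0.52) and 0.29 (0.28 to 0.30). Leaving out the P1 library, the P5 share was lower than at E16.5 by 0.22 on the log2 scale in Lhx6 cells and 0.24 in Nos1 cells. The ages differed in depth as well as in share. Lhx6 cells with 2000 to 3000 UMIs had a median share of 2.80%, 5.45% and 8.44% from the youngest to the oldest library, against 9.60%, 7.37% and 7.72% in those with 6000 to 9000 UMIs. When both ages were weighted to the same depth bins the step from E16.5 to P1 was -0.28 in Lhx6 cells and -0.26 in Nos1 cells, and in Nos1 cells the smallest bin held 1 cell.

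The log2 ratio of the share in Nos1 over Lhx6 cells was -0.03 (-0.04 to -0.02) before birth, at E16.5, and after birth -0.15 at P1 (-0.16 to -0.14) and later, at P5, -0.05 (-0.06 to -0.05). Taken as pairs, the share was lower in Nos1 cells in 3 of 3 libraries, with a mean log2 ratio of -0.08 ± 0.06 (SD, n = 3), and the exact sign-flip permutation test gave p = 0.25 (two-sided), the smallest that 3 pairs can give. The values at E16.5 and P1 moved with how the cells were chosen. With at least 2 UMIs of the marker gene they were -0.20 and -0.21, and without cells that had at least 2 UMIs of 8 excitatory neuron markers both were -0.23. The P5 over P1 step of Lhx6 cells was 0.16 and 0.28 under these choices, so that the gap between cell groups at P1 was the larger of both values under the first and the smaller under the second. The excitatory marker filter took out 2362 of 3952 cells, and Bcl11b, which inhibitory neurons also express, made up 453 of the 499 CPM of those markers. The 40 E16.5 cells with at least 3 UMIs of Neurod6 had a ribosomal protein share of 11.4% (11.3% to 11.5%), and 35% of them had a UMI of Nos1. At P1 29 such cells had a share of 6.81%, and at P5 8 such cells had 7.30%.

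The share of single cells was not spread around 1 centre. Most Lhx6 cells lay around the medians of 8.90%, 6.37% and 7.96% of the E16.5, P1 and P5 libraries, but a second group lay near 2%. Few cells lay between both groups, at about 4%, at E16.5 and P5, whereas at P1 the groups ran into each other. The 5th percentile of Lhx6 cells was 2.11%, 1.45% and 2.91% at the 3 ages, against 95th percentiles of 12.2%, 11.4% and 12.1%. Nos1 cells had medians of 7.81%, 5.86% and 7.50%, and at P1 and P5 they had the same lower group.

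**Figure D1:**
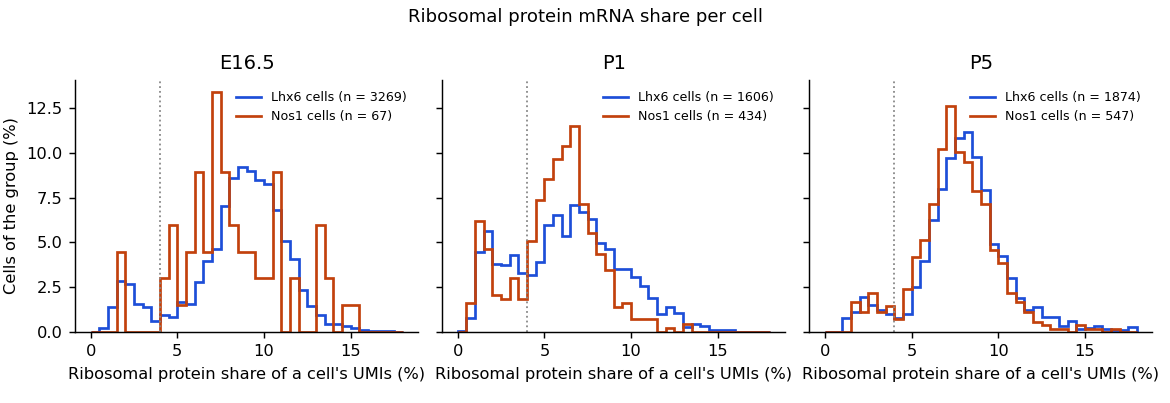
Histograms of the ribosomal protein share of each cell's UMIs (x axis, percent, bins of 0.5, cells of 17.5% or more in the last bin) as a percent of the cells of the group (y axis), for Lhx6 cells and Nos1 cells in each library. The dotted line marks 4%, and the lower hump is largest at P1.

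Cells under a share of 4%, a limit set after the data were seen, made up 10.6% of Lhx6 cells at E16.5 (348 cells, interval 9.61% to 11.8%), 26.1% at P1 (419 cells, 24.0% to 28.3%) and 7.58% at P5 (142 cells, 6.42% to 8.87%). In Nos1 cells they were 3 of 67, 92 of 434 (21.2%) and 41 of 547 (7.50%). Between 3.5% and 4.5% lay 50, 104 and 33 Lhx6 cells, so that the limit cut through few cells at E16.5 and P5 and through more at P1.

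The mRNAs of both subunits were low in the same cells. Over Lhx6 cells, the summed share of the large subunit members and that of the small subunit members had a Pearson correlation of 0.962 at E16.5 (n = 3269 cells), 0.959 at P1 (n = 1606) and 0.929 at P5 (n = 1874). These are descriptions over cells that share a library, and both sums share the cell's depth. Member by member, all 81 were lower in cells under 4% at E16.5, with a median log2 ratio of -2.07 and a range from -2.80 for Rpl32 to -0.82 for Rpl7l1. At P1 80 members and at P5 79 had at least 500 UMIs over both kinds of cell, and all of these were lower, with medians of -1.55 and -1.62. The cells were divided by the sum of these same genes, so the direction was given by the division.

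Genes outside the set differed between these cells too. In Lhx6 cells under 4% the median depth was 2137, 1876 and 2195 UMIs at E16.5, P1 and P5, against 6093, 4643 and 4987 UMIs in the others. The median mitochondrial share was 5.80%, 6.99% and 6.96% against 3.94%, 6.14% and 4.23%. Malat1, a long noncoding RNA that stays in the nucleus, had a median of 70079, 44612 and 22053 CPM per cell against 30359, 30389 and 16217 CPM. The lower cells were therefore shallower, with a higher mitochondrial share and more Malat1, in each library.

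Among the 2833 other genes with at least 500 UMIs at each age, Tmsb10 and Tmsb4x, which encode small actin-binding thymosins, were among the 10 lowest in cells under 4%. Tmsb10 was at 799, 588 and 1052 CPM against 4694, 2331 and 4097 CPM. Mrps21, a mitochondrial ribosomal protein gene, and Atp5e and Cox14, nuclear genes for mitochondrial proteins, were among them as well. Among the 10 highest were Rpn1, which encodes a subunit of the endoplasmic reticulum enzyme that glycosylates new proteins, Ctsd, a lysosomal protease, and the membrane phosphatase genes Ptprs and Ptprt. Rpn1 was at 151, 245 and 257 CPM against 70.4, 108 and 69.9 CPM. Sec61b, another gene of the endoplasmic reticulum, was instead among the 10 lowest, at 63.1, 44.3 and 60.5 CPM against 205, 183 and 181 CPM. Sst, which was in neither group of 10, was at 1931, 2166 and 5178 CPM against 2938.5, 1426.5 and 1286 CPM. It was thus lower in cells under 4% at E16.5 and higher at P1 and P5.

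The lists fixed for translation showed graded differences in the same cells. Translation factors had median log2 ratios of -0.74, -0.67 and -0.72 at E16.5, P1 and P5, mitochondrial ribosomal proteins -1.06, -0.92 and -0.84, and ribosome biogenesis genes -0.20, -0.21 and -0.31. The median over all genes with enough UMIs was 0.16, -0.02 and -0.16. A list of 11 stress and dissociation genes had 6, 3 and 4 members with enough UMIs, with medians of 0.52, 1.32 and 0.77, and its members differed in sign. Hspa5, the main chaperone of the endoplasmic reticulum, had ratios of 0.87, 1.33 and 2.03, and its partner Hsp90b1 had 0.67, 1.32 and 2.16. Jun, an immediate early transcription factor, had 0.41, -0.27 and -0.48, and Ddit3, a transcription factor of the stress response of the endoplasmic reticulum, had -0.86 at E16.5 and -1.37 at P5. The part of depth, of the mitochondrial share and of Malat1 in these differences was not tested. The study discarded small clusters that had signs of endoplasmic reticulum stress and fewer UMIs. No clusters were left out here, and whether the cells under 4% overlap with them was not tested. Barcodes left out by the quality limits, whose median mitochondrial share was 11.0% to 13.5%, had ribosomal protein shares of 2.29%, 2.01% and 3.50%.

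**Figure D2:**
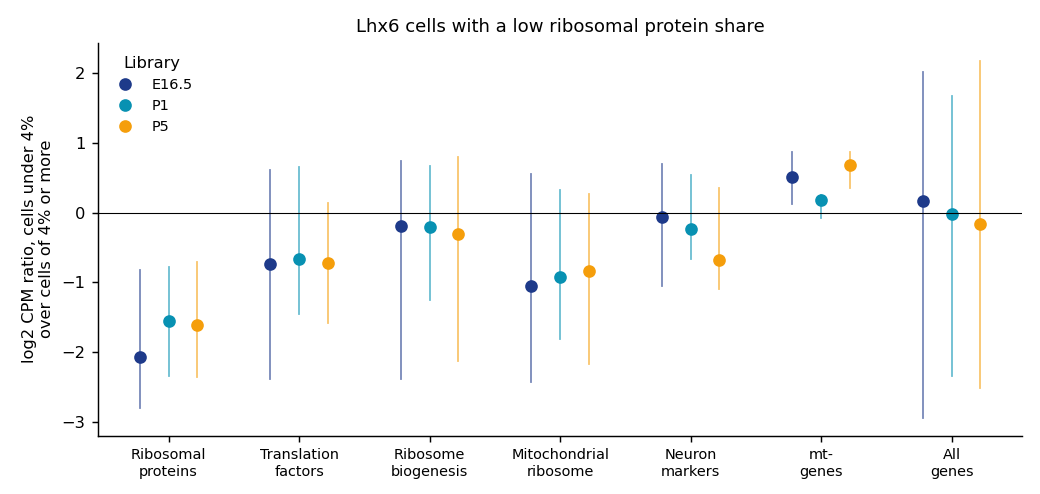
Log2 ratio of CPM in Lhx6 cells under a 4% ribosomal protein share over those at 4% or more (y axis), for 7 gene lists (x axis). Points are the median of a list in 1 library and lines run from its lowest to its highest gene, with the ribosomal proteins lowest, at -2.07, -1.55 and -1.62.

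Without the cells under 4% the Lhx6 share was 9.37%, 7.45% and 8.03% at E16.5, P1 and P5, and the Nos1 share was 9.01%, 6.69% and 7.79%. The order of the ages was as before, but the P5 over P1 step in Lhx6 cells shrank from 0.20 to 0.11 on the log2 scale. As a mean of per-cell shares that step was 0.33. The size of the P5 over P1 step thus moved by more than 1.5 times with the way the cells were weighed, whereas its direction did not.

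The members spanned a wide range of levels. As the 3′ method counts a molecule once whatever its length, levels of different genes are compared here as CPM without a length correction, and capture can still differ between genes. In Lhx6 cells the lowest member, Rpl7l1, a gene related to Rpl7, was at 64.4, 49.9 and 34.8 CPM at E16.5, P1 and P5. The median member was at 1141, 847 and 845 CPM. At least 1000 CPM was reached by 48, 23 and 35 members.

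The 10 members with the highest mean level in Lhx6 cells included Rpl41, Rpsa, Rplp1, Rpl13, Rplp0, Rps19, Rps2, Rpl23 and Rps27a. Rpl41, whose product is the smallest ribosomal protein, lies at chr10:128548114-128549305 (GENCODE M21, GRCm38). Lhx6 cells had 1607 CPM (1590 to 1624) of it at E16.5, 1590.1 CPM (1563 to 1618) at P1 and, at P5, 4375 CPM (4333 to 4418), and Nos1 cells had 1737, 1543 and 4227 CPM. It was 15th in order at E16.5, 2nd at P1 and 1st at P5, where it alone made up 5.58% of the ribosomal protein UMIs of Lhx6 cells.

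Rpsa, which encodes the small subunit protein also known as the laminin receptor, was at 1994, 1555 and 3221 CPM in Lhx6 cells and at 1860, 1340 and 3050.1 CPM in Nos1 cells. Rplp1, a protein of the stalk that receives elongation factors, was at 1974, 1544 and 2658 CPM in Lhx6 cells. Rplp0, the base of the same stalk, was at 1892, 1286 and 1671 CPM. In all of these the P1 library was the lowest of the 3, although for Rpl41 the intervals of E16.5 and P1 overlapped, and Rpl41, Rpsa and Rplp1 were above their E16.5 level at P5 whereas Rplp0 was below it.

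The 10 highest members together held 21.4% of ribosomal protein UMIs in Lhx6 cells of the E16.5 library, 22.2% in that of P1 and 28.7% in that of P5, the 10 being taken anew in each library. The large subunit members made up 5.04%, 3.84% and 4.53% of all UMIs of Lhx6 cells and the small subunit members 4.06%, 3.00% and 3.30%. Both subunits were lowest at P1.

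**Figure D3:**
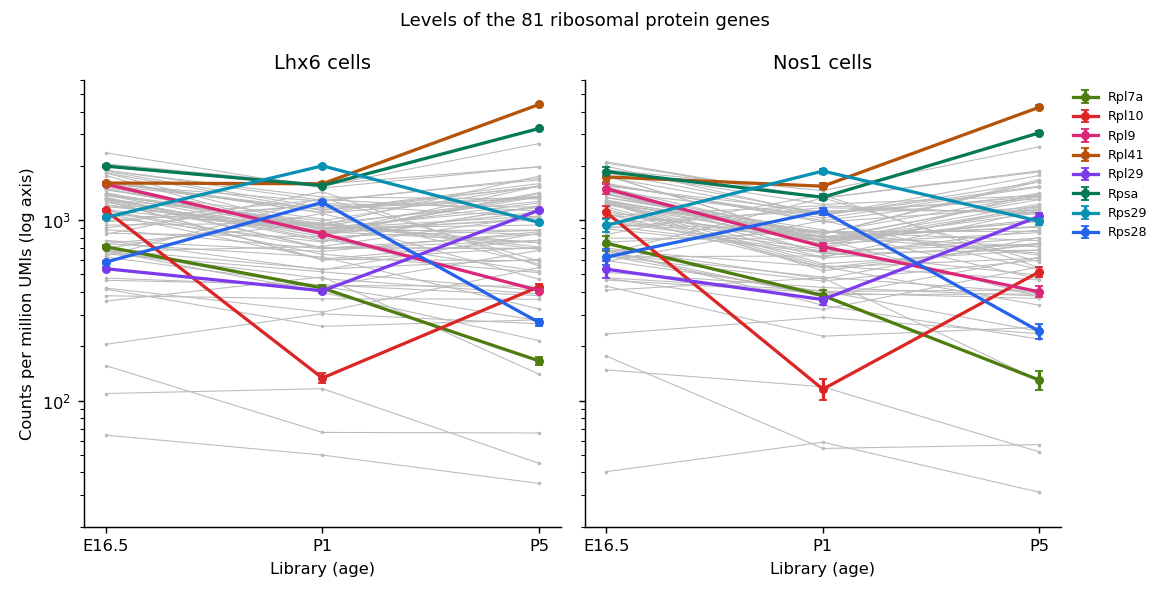
CPM (y axis, log scale) of the 81 members at E16.5, P1 and P5 (x axis) in Lhx6 cells and in Nos1 cells. Grey lines are single members, coloured lines are 8 members named in the legend with exact 95% counting intervals, and Rpl10 drops to 133 CPM at P1 in Lhx6 cells while Rps29 reaches 2000 CPM.

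The members did not move as a block between libraries. From E16.5 to P1 in Lhx6 cells, 29 of 81 members were lower by more than 1.5-fold and 5 were higher, with a median log2 ratio of -0.52 and a range from -3.08 to 1.10. Over all 11863 genes with at least 50 UMIs in both groups together, 12% were lower and 24.1% higher by that measure, with a median of 0.16. Among genes with a mean of at least 100 CPM, closer to the level of the members, the percentages were 18.6 lower and 18.8 higher, and 29 of 80 members were lower and 5 higher. The share of members that were lower was thus above both backgrounds, and the share that were higher was below them.

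From P1 to P5 in Lhx6 cells, 15 members were lower and 16 higher past the same fold, with a median of 0.16 and a range from -2.21 to 1.67. Of all genes 24.5% were lower and 18.7% higher, and of those with at least 100 CPM 18.8% were lower and 24.1% higher. The counts of members lay near these backgrounds in both directions.

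In Nos1 cells, 43 members were lower and 5 higher from E16.5 to P1, against 14% and 26.4% of all genes tested. From P1 to P5, 15 were lower and 21 higher, against 26.9% and 14.9% of all genes. The median member was at -0.61 and 0.21 for these steps. With at least 2 UMIs of the marker gene, 30 members were lower and 5 higher from E16.5 to P1 in Nos1 cells. Under the same choice 29 were lower and 6 higher in Lhx6 cells. The larger count in Nos1 cells thus rested on how the 67 E16.5 cells were chosen. A background of genes with at least 100 CPM was not taken for the steps of Nos1 cells. With the P1 library left out, 24 members were lower and 4 higher at P5 than at E16.5 in Lhx6 cells, against 25.4% and 28.4% of all genes and 26.5% and 29.8% of those with at least 100 CPM. In Nos1 cells the same comparison had 25 lower and 3 higher, against 24.3% and 27.6%. Across that wider interval the share of members that were lower was thus near the background, and the share that were higher was below it.

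Both subunits held members of each kind. From E16.5 to P1 in Lhx6 cells 13 of 49 large subunit members and 16 of 32 small subunit members were lower past the fold, with medians of -0.44 and -0.61. Closest to the limit, Rpl30 at 0.645 times its E16.5 level lay just past it, and Rpl19 at 0.667 times lay just inside.

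Rpl10, an X-linked gene whose product is one of the last proteins to join the large subunit, was the member that differed most at P1. It lies at chrX:74270812-74273135. In Lhx6 cells it was at 133 CPM (126 to 142) at P1, against 1132 CPM (1118 to 1147) at E16.5 and 428 CPM (415 to 442) at P5. In Nos1 cells it was at 1106, 116 and 518 CPM from the youngest to the oldest library. Its level at P1 was 0.119 times that at E16.5 in Lhx6 cells, which took it from 43rd to 78th of the 81 members.

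A set of 5 members stood at the other end, and these were higher at P1 than at E16.5 and lower at P5 than at P1, both past the fold, in Lhx6 cells. They were Rps28, Rps29, Rps27, Rpl38 and Rpl39, all small proteins. The 5 were 6.17% of the members, and 5.45% of 11212 genes tested at both steps and 3.92% of those with at least 100 CPM had this order. Rps28, at chr17:33819027-33824562, was highest at P1, where Lhx6 cells had 1254 CPM (1230 to 1279), against 585 CPM (575 to 596) at E16.5 and 271 CPM (261 to 282) at P5. Nos1 cells had 624, 1121 and 242 CPM of it from the youngest to the oldest library. Rps29 was at 1035, 2000 and 971 CPM and was the highest of all members at P1. Rpl38, a large subunit protein known for the skeletal patterning defects of its mouse mutants, was at 633, 1329 and 594 CPM.

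Rpl39 was at 836, 1438 and 557 CPM and Rps27 at 696, 1086 and 570.5 CPM in Lhx6 cells. Nos1 cells had 833, 1383 and 545 CPM of Rpl39 and 591, 995 and 533 CPM of Rps27. Both groups thus had their highest level at P1 for each of these 5 genes. In each of the 5 the P5 level of Lhx6 cells was also below the E16.5 level, with log2 ratios from -1.11 for Rps28 to -0.09 for Rpl38 and Rps29.

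A further 5 members, among them Rpl10, Rps4x, Rps15 and Rpl15, had the reverse order, lower at P1 and higher again at P5 past the fold in Lhx6 cells, 6.17% of the members against 2.15% of all genes and 3.15% of those with at least 100 CPM. Rpl7a, Rpl9, Rpl5 and Rps3 were lower at both steps, 4.94% of the members against 2.88% and 3.92% of genes. Each of these shares rests on 4 or 5 members. Rpl9 was at 1582, 841 and 408 CPM in Lhx6 cells and at 1495, 713 and 400.4 CPM in Nos1 cells. Rpl5, which carries a small ribosomal RNA into the large subunit and binds the Mdm2 protein when assembly fails, was at 676, 398 and 215 CPM in Lhx6 cells and 687, 338 and 219 CPM in Nos1 cells.

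Rpl7a was the lowest of all at P5 relative to E16.5, at 713, 421 and 166 CPM in Lhx6 cells, a log2 ratio of -2.10 (-2.18 to -2.03). Rps23, a protein of the decoding centre, was at 1468, 1014 and 470.5 CPM, a ratio of -1.64. The 5 members with the highest ratios of P5 over E16.5 were Rpl41 at 1.44, Rpl29 at 1.07, Rpsa at 0.69, Rpl36 at 0.65 and Rplp1 at 0.43. Rpl29, a large subunit protein, was at 538, 406 and 1135 CPM in Lhx6 cells and at 535, 363 and 1051 CPM in Nos1 cells.

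The steps of single members were alike in Nos1 and Lhx6 cells, which come from the same 3 libraries. For the step from E16.5 to P1 the spread over members was 0.58 (SD of the log2 ratio, n = 81 genes) in Lhx6 cells and 0.62 in Nos1 cells, whereas the difference between both cell groups, gene by gene, had an SD of 0.15 around a median of -0.14. From P1 to P5 the spreads were 0.72 and 0.76 and that of the difference was 0.13 around 0.09. The largest gap was 0.89 for Rpl7l1, which had 24 UMIs in E16.5 Nos1 cells.

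**Figure D4:**
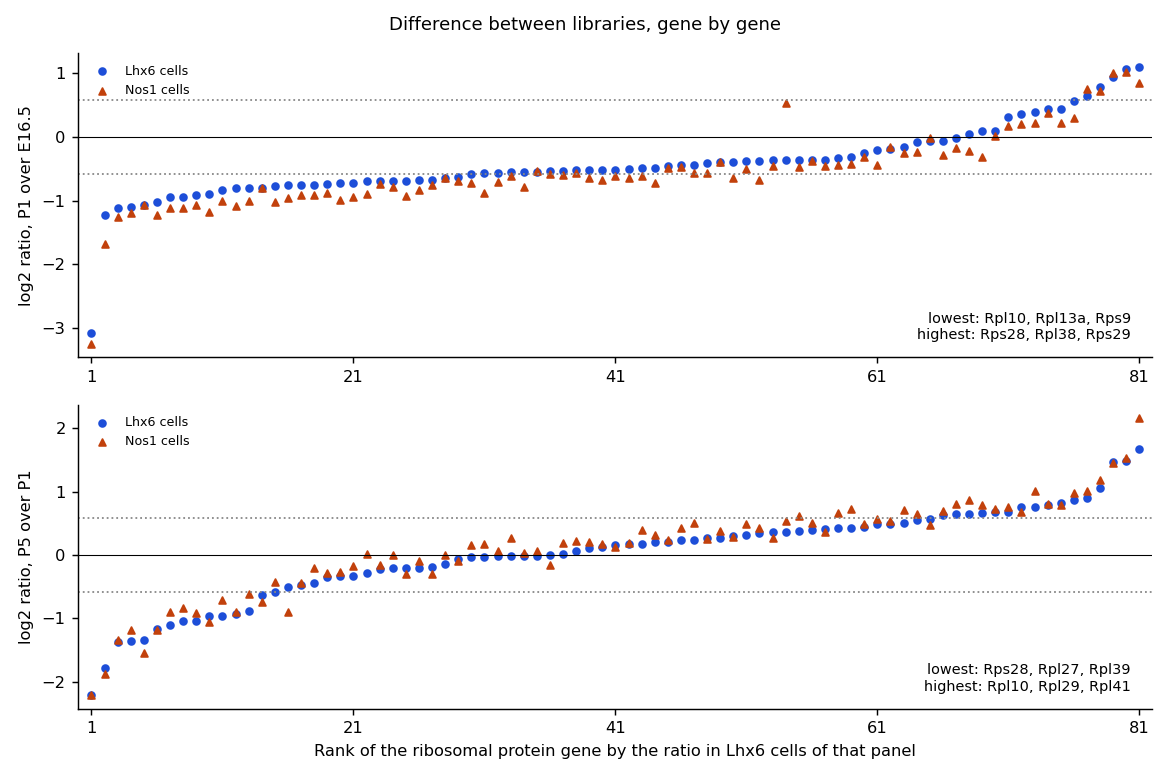
Log2 ratio of CPM (y axis) of each of the 81 members (x axis, in order of the ratio in Lhx6 cells, with the 3 lowest and 3 highest named) from E16.5 to P1 (top) and from P1 to P5 (bottom), in Lhx6 cells (circles) and Nos1 cells (triangles) of the same libraries. Dotted lines mark 1.5-fold, and the triangles follow the circles from Rpl10 at -3.08 to Rps28 at 1.10 in the top panel.

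Rpl10 had the lowest step from E16.5 to P1 of all members in cells of other kinds within these libraries as well. It had a ratio of -2.23 in Lhx6 cells under a 4% share, -3.00 in those above it, -3.53 in kept cells without Nos1 or Lhx6 and -2.07 in barcodes left out by the quality limits. Rps28 had ratios of 1.61, 1.19, 0.59 and 1.58 in the same order, the highest of all members in each kind but the cells under 4%, where Rpl38 and Rps27l were above it. The median member was at 0.05, -0.43, -0.95 and -0.27 in the same order, and the spread over members was 0.57 to 0.63 in all of these kinds. Lhx6 cells under and above 4% were divided by the sum of these same genes, so their medians are set in part by the division.

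Transcript length went along with part of the differences from E16.5 to P1. Among members whose principal annotated transcript has at most 600 bases, 19 genes, the median log2 ratio from E16.5 to P1 in Lhx6 cells was -0.06, against -0.61 for 32 members up to 1000 bases and -0.52 for 30 longer ones. Genes outside the set had medians of -0.07 (141 genes), -0.32 (547 genes) and 0.18 (11080 genes) in the same classes. The 5 members highest at P1 have transcripts of 345 to 612 bases, but Rpl41 with 582 bases had a ratio of -0.02. From P1 to P5 the members of the 3 classes had medians of -0.20, 0.15 and 0.31, from shortest to longest. Other genes had 0.25, 0.27 and -0.12, so members and other genes differed in sign in the shortest and longest classes. The part of length was not tested.

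Many members have near-identical copies elsewhere in the genome. Over the last 300 bases of the principal transcript, 58 of 81 members shared at least 1 stretch of 50 bases with a transcript of another gene, and 43 shared over 50% of such stretches. Rpl10, Rpl9 and Rps27 shared 100% and Rpl7a 80.5%, whereas Rpl5, Rps3, Rpsa and Rpl15 shared none. Levels of the first kind are uncertain, as reads that fit several genes may be dropped or assigned to one of them. Over the members, the shared percent had a Spearman correlation of 0.12 with the size of the step from E16.5 to P1 and of -0.07 with that from P1 to P5 in Lhx6 cells (n = 81 genes, a description). Some copies carried UMIs of their own. In Lhx6 cells Rpl10-ps3 was at 17.9, 49.4 and 17.7 CPM and Rps27rt at 17.2, 119 and 17.6 CPM at E16.5, P1 and P5. Both were highest at P1, as were Rpl36a-ps1, Rpl9-ps6 and Rpl7a-ps5, the last on 12, 11 and 4 UMIs. Rpl27-ps3, at 10.8, 8.37 and 3.24 CPM, was instead highest at E16.5, as were Rps12-ps3 and Rpl13a-ps1. Rpl9-ps1 and Rpl36-ps4 had no UMIs in Lhx6 cells. Rpl10 itself was at 1132 CPM at E16.5 and 133 CPM at P1, and Rps27 at 696 and 1086 CPM. The part of shared sequence in the levels was not tested.

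Within each library the members differed little between Nos1 and Lhx6 cells. The spread over members of the log2 ratio of Nos1 over Lhx6 cells was 0.14, 0.10 and 0.11 in the E16.5, P1 and P5 libraries. Past 1.5-fold lay 1, 0 and 0 of 81 members, against 25.9%, 13.1% and 19.1% of all genes tested and against 7.9%, 9.34% and 13.1% of genes with at least 100 CPM. The member past the fold at E16.5 was Rpl7l1, at 40.4 CPM in Nos1 cells (25.9 to 60.1) and 64.4 CPM in Lhx6 cells. Of the members, 80, 79 and 78 had at least 100 CPM, and none of these lay past the fold. The background of genes at that level is therefore the closer one. Genes with few UMIs pass a fold more easily by counting error. At E16.5 Nos1 cells had 594151 UMIs against 21231252 in Lhx6 cells, and the median member was at 1109 CPM in Nos1 cells. Neither background was matched to the members in counts, and the part of counting error was not tested. Of the 81 members 48, 77 and 56 were lower in Nos1 cells at E16.5, P1 and P5, with medians of -0.02, -0.15 and -0.05. Over all genes tested the medians were -0.04, -0.03 and -0.08, so that the median member lay below that of all genes at P1 alone.

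A test of Nos1 against Lhx6 cells over all genes, with the library as a block and 2 residual degrees of freedom, called none of the 81 members. This was edgeR's quasi-likelihood test with Benjamini-Hochberg adjusted p under 0.05, and it asks for a difference that the 3 ages share. It called 5.01% of 12723 genes, 291 lower and 347 higher in Nos1 cells. At an unadjusted p under 0.05 it had 3 members, against 16.7% of all genes. Nos1 cells were the deeper group at E16.5, with a median of 7863 UMIs against 5808, and the shallower at P5, with 3073 against 4753, and the part of depth was not tested.

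**Figure D5:**
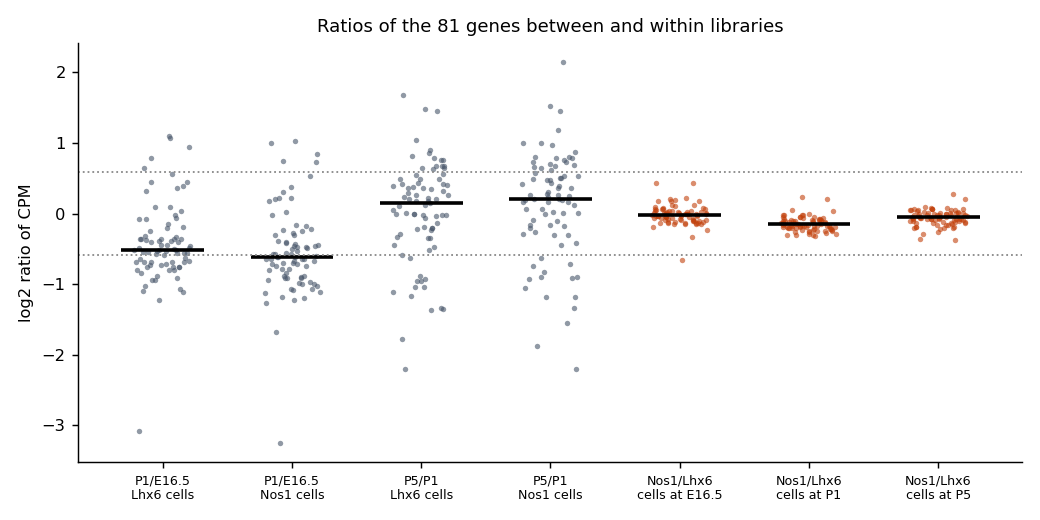
Log2 ratio of CPM (y axis) for each of the 81 members (points) in 4 comparisons between libraries (grey) and 3 comparisons of Nos1 with Lhx6 cells within a library (orange). Black bars are medians and dotted lines mark 1.5-fold, with SDs of 0.58 to 0.76 between libraries and 0.10 to 0.14 within them.

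Rps12 was the member with the lowest mean ratio of Nos1 over Lhx6 cells at P1 and P5. This small subunit gene, whose fly counterpart takes part in cell competition, lies at chr10:23785183-23787275. It was at 1109 CPM (1026 to 1197) in Nos1 cells and 1396 CPM (1380 to 1412) in Lhx6 cells at E16.5, at 765 CPM (727 to 805) against 958 CPM (937 to 980) at P1, and at 983 CPM (940 to 1028) against 1271 CPM (1248 to 1294) at P5. The log2 ratios were -0.33, -0.32 and -0.37, so that the intervals of the groups stayed apart at each age. In the paired test it had a log2 ratio of -0.34 ± 0.08 (SE), lower in 3 of 3 libraries, and an adjusted p of 0.0521 by edgeR, just outside the threshold. With scaling to total UMIs in place of edgeR's own scaling the adjusted p was 0.0412, with at least 2 UMIs of the marker gene 0.0428, and with 1 library left out 0.0818 to 0.503. Without the library as a block edgeR gave an unadjusted p of 0.331. Rps12 was named for its low ratio at P1 and P5, so only E16.5, with 67 Nos1 cells, lay outside that choice. Its last 300 bases share 94.4% of their 50-base stretches with other transcripts.

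Rpl3, Rpl13a and Rpl7a were also among the 5 lowest, with mean ratios of -0.29, -0.25 and -0.24 over P1 and P5. At the other end Rpl22l1 had 0.13, Rps27l 0.12, Rpl7l1 0.04, Rpl10 0.04 and Rpl8 0.04. For Rpl10 the values at the ages differed in sign, -0.20 at P1 and 0.27 at P5. The same held for Rpl7l1, at 0.23 and -0.16, and for Rpl8, at -0.02 and 0.09.

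Rpl22l1 is a close relative of Rpl22 that can take its place in the large subunit. It was at 513 CPM (457 to 574) in Nos1 cells and 381 CPM (373 to 390) in Lhx6 cells at E16.5, at 424 CPM (396 to 454) against 367 CPM (354 to 380) at P1, and at 380.0 CPM (353 to 408) against 365 CPM (352 to 377) at P5. The log2 ratio was thus 0.43, 0.21 and 0.06, and at P5 the interval of the ratio (-0.06 to 0.17) held 0. The paired test gave it 0.23 ± 0.09 (SE) and an adjusted p of 0.267 by edgeR. Rpl22 itself was at 478, 430 and 278 CPM in Lhx6 cells. In Lhx6 cells Rpl22l1 differed little between libraries, with steps of -0.06 and -0.01, while Rpl22 was lower at P5.

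The other related pairs were uneven. Rps27l, known to respond to DNA damage, was at 110 CPM, 116 CPM and 44.9 CPM in Lhx6 cells at E16.5, P1 and P5, far below its relative Rps27. Rpl36al was at 205, 303 and 267 CPM and Rpl36a at 464, 438 and 382 CPM. Rpl7l1 stood against Rpl7 at 1134, 704 and 698 CPM. Rpl10l, described mainly in the male germ line, had no UMI, which allows up to 3 counts, Rpl39l had 2 UMIs in E16.5 Lhx6 cells, and Rpl3l, known from muscle, had 7 in P5 Lhx6 cells.

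Genes for ribosomal parts that the naming rule leaves out were measured beside the set. Fau, the precursor of a small subunit protein, was at 1549, 1029 and 1862 CPM in Lhx6 cells, lowest at P1 and highest at P5. Rack1, a signalling scaffold on the small subunit, was at 927, 527 and 503 CPM.

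Other genes of protein synthesis, from lists drawn up for this purpose, had their own courses in Lhx6 cells. Of 42 translation factors 23 were lower and 3 higher past 1.5-fold at P5 than at E16.5, with a median log2 ratio of -0.66, beside -0.31 for the ribosomal proteins and 0.02 for all genes. These counts are 54.8% and 7.14% of the list, against 25.4% lower and 28.4% higher among all genes tested in this comparison. Btf3, of the complex that meets nascent chains at the ribosome, was at 801, 370 and 120 CPM at E16.5, P1 and P5, and Eef1e1, of the complex of tRNA synthetases, at 173, 112 and 27.6 CPM. Eef1a2, the elongation factor isoform of mature neurons, was at 82.2, 98.4 and 235 CPM, and Eif3b, a subunit of an initiation factor, at 70.1, 74.9 and 122 CPM.

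Of 51 ribosome biogenesis genes 22 were lower and 1 higher past the fold at P5 than at E16.5, with a median of -0.51, which are 43.1% and 1.96% of the list against the same 25.4% and 28.4% of all genes. Nip7, needed for the large subunit, was at 60.7, 31.96 and 12.4 CPM and the nucleolar gene Rsl1d1 at 144, 91.8 and 39.0 CPM. Polr1a, the largest subunit of RNA polymerase I, which makes ribosomal RNA, was at 17.5, 38.2 and 30.5 CPM, and its initiation factor gene Rrn3 at 50.4, 75.9 and 71.7 CPM. These 4 were named for being the lowest and the highest of their list.

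Of 25 genes of mTOR signalling and pyrimidine tract regulation with enough UMIs, 8 were lower and 6 higher past the fold, with a median of -0.08. At 32% and 24% these shares lay near the 25.4% and 28.4% of all genes. Eif4ebp1 and Eif4ebp2 encode repressors of cap-dependent translation that mTOR inactivates. Eif4ebp2 was at 92.1, 82.4 and 24.9 CPM, while Eif4ebp1 was at 0.895, 4.62 and 13.2 CPM, on 19, 37 and 122 UMIs. Mycl was at 58.9, 37.1 and 14.6 CPM, and Sesn3, of the sestrins that restrain mTOR, at 38.7, 60.3 and 102 CPM.

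Mitochondrial ribosomal proteins, which are made from nuclear genes for a separate ribosome, had a median of -0.39 from E16.5 to P1 and 0.25 from P1 to P5 in Lhx6 cells, the same signs as the -0.52 and 0.16 of the cytoplasmic set. Of 77 tested, 20 were lower and 10 higher at P5 than at E16.5. Their 26% lower lay near the 25.4% of all genes, and their 13% higher was below the 28.4%. Mrps28 was at 24.5, 21.6 and 3.56 CPM and Mrpl39 at 20.96, 12.2 and 4.43 CPM, while Mrpl54 was at 41.5, 44.4 and 96.3 CPM and Mrps12 at 79.6, 69.8 and 182 CPM. Of the 10 listed noncoding hosts of small nucleolar RNAs 3 were matched, and Snhg6 was at 73.5, 157 and 16.2 CPM, Snhg12 at 116, 77.5 and 107 CPM and Snhg20 at 82.2, 90.1 and 175 CPM.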

How the data were processed

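The authors aligned the droplet libraries to GRCm38 and deposited raw UMI counts per gene and cell, 1 matrix per library, for which the headers name Cell Ranger 3.0.2 at P1 and 3.1.0 otherwise. Library totals were 25638779, 15654107 and 13429055 UMIs. Counts of a gene were summed over the cells of a group and scaled to 1000000 UMIs (CPM). Log2 ratios used a pseudocount of 1 CPM and at least 50 UMIs over both groups. Shares had exact binomial intervals, levels exact Poisson intervals and ratios exact conditional intervals (95%, scipy 1.17.1). UMIs of 1 cell are not independent cells, so these cover counting error only. As each age is 1 library, ages were not tested. Nos1 and Lhx6 cells were compared as pairs over the 3 libraries, the share by an exact sign-flip permutation test and genes with at least 50 UMIs, without Nos1 and Lhx6, by edgeR 4.0.16 with the library as a block, both added after the data were seen. Doublets were left in, and no caller was run. Named genes were the 10 highest members by mean CPM in Lhx6 cells, the 5 highest and 5 lowest by P5 over E16.5 in Lhx6 cells and by the mean ratio of Nos1 over Lhx6 cells at P1 and P5, related gene pairs, ribosomal genes outside the rule, and the 2 highest and 2 lowest of each other list by P5 over E16.5. Genes of cells under a 4% share and other members given as examples of a pattern were chosen after their values were seen. The members and lists were chosen with earlier results of these data known. Gene positions and transcripts were from GENCODE M21 and start sequences from RefSeq. The ratios and the paired fit were tested on simulated data. Alternatives covered cell filters, depth, markers, fold and scaling. Values of a few genes that the naming rule would include are not reported here.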

Additional observations from a re-analysis of the deposited data

Results flagged for a closer look

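Of the 3 symbols left out for having under 30 UMIs, 2 had more than the 3 counts allowed by a count of 0. Rpl39l had 5 UMIs and Rpl3l had 8 UMIs over the kept cells of the 3 libraries, and neither entered the sums. Such counts give no comparison between libraries. No group held the 4 or more samples needed to look for a sample far from the others.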

How the results depend on the processing

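No paired analysis was possible because each age was 1 library, as far as ages are compared, whereas Nos1 and Lhx6 cells were paired within the libraries. The log2 ratios of the share are given in the order P1 over E16.5 in Lhx6 cells, P5 over P1 in Lhx6 cells, the same pair in Nos1 cells, and Nos1 over Lhx6 cells from the youngest to the oldest library, and were -0.41, 0.20, -0.53, 0.29, -0.03, -0.15 and -0.05 as reported. All kept their signs under the alternatives. They were -0.42, 0.33, -0.54, 0.42, -0.04, -0.16 and -0.08 as means of per-cell shares, and -0.41, 0.18, -0.50, 0.30, -0.04, -0.14 and -0.03 with over 1000 genes and under 5% mitochondrial UMIs. Cells thinned to 2000 UMIs gave -0.32, 0.17, -0.42, 0.27, -0.07, -0.18 and -0.07, and left out 2 to 291 shallower cells per group. At least 2 UMIs of the marker gene gave -0.39, 0.16, -0.40, 0.31, -0.20, -0.21 and -0.06. Without mitochondrial UMIs they were -0.38, 0.16, -0.51, 0.26, -0.03, -0.16 and -0.07. Depth-matched groups gave -0.28, 0.12, -0.26, 0.34, -0.08, -0.17 and -0.08. Without excitatory marker cells they were -0.44, 0.28, -0.44, 0.46, -0.23, -0.23 and -0.05, and without cells under a 4% share, an alternative chosen after seeing the data, -0.33, 0.11, -0.43, 0.22, -0.06, -0.16 and -0.04. Leaving out the related genes gave -0.42, 0.20, -0.54, 0.30, -0.03, -0.15 and -0.05, and the study's limit on total UMIs moved none past its counting interval. The causes were not tested. Members past the fold, in the same order, were 34, 31, 48, 36, 1, 0 and 0 as reported. At the looser fold they were 68, 51, 66, 51, 4, 1 and 2, and at a fold of 2 they were 8, 13, 14, 13, 0, 0 and 0. At E16.5 the 1 member in Nos1 over Lhx6 cells became 0 with a pseudocount of 10 CPM or 2 marker UMIs, and at P1 the 0 became 1 under stricter quality limits. Other settings left each count within 1.5 times. In the paired fit, added after seeing the data, the 0 members called became 1, Rps12, with scaling to total UMIs and with at least 2 marker UMIs. It was 0 with any library left out, without cells under a 4% share and with no replicate block. The E16.5 Nos1 values rest on 67 cells.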
